A study of Arabidopsis thaliana with 71 samples.

Results

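The class III homeodomain-leucine zipper (HD-ZIP III) genes of Arabidopsis are REVOLUTA (REV, AT5G60690), PHABULOSA (PHB, AT2G34710), PHAVOLUTA (PHV, AT1G30490), CORONA (CNA, AT1G52150) and ATHB8 (AT4G32880). They were taken by locus identifier from a table of 22332 genes, with no cut on values but with earlier results of these data known. All 5 were among the 19406 genes tested. Their mRNAs were followed in 71 RNA-seq libraries of whole Columbia seedlings, 7 days old and shaken in liquid medium. The transgenic lines GR-AS2 (Asymmetric Leaves 2), GR-STM (Shoot Meristemless), GR-REV (Revoluta) and GR-KAN1 (Kanadi1) were compared with wild type (WT). Seedlings were frozen at 0 min, or 30, 60 and 120 min after 50 µM dexamethasone was added, WT included. There were 3 libraries for every GR line and time, with 2 for GR-REV at 30 min, and 6 for WT at every time. Each factor was joined to the glucocorticoid receptor (GR), whose hormone-binding part keeps a fusion out of the nucleus until the steroid is added. The sources used here give neither the promoters that drive the fusions nor the number of insertion events behind a line. No group was frozen after a mock treatment, so hormone, handling and elapsed time cannot be told apart within a line; the WT libraries at the same times carry all of them. In whole seedlings, fewer cells of a type and less mRNA per cell cannot be told apart either.

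HD-ZIP III proteins are transcription factors with a homeodomain, a leucine zipper through which they pair, and a START domain. In seedlings they mark the upper (adaxial) side of young leaves, the shoot meristem and the inner vascular tissue. Their mRNAs are cut by the related microRNAs miR165 and miR166, which restrict them to those places. Their activity is also limited by the LITTLE ZIPPER proteins, small leucine zipper partners without a DNA-binding domain, whose genes REV is known to switch on.

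All 5 genes carry the microRNA site in their coding sequence, which is shown because it is the feature the family shares at the mRNA level. The annotated mature products were read from the TAIR10.1 genome (RefSeq annotation), 5′ to 3′, with the seed, bases 2 to 8, in capitals. The product of MIR165A lies at chr1:78932-78952 on the minus strand, and the same miR166 sequence was annotated at 3 loci, MIR166A, MIR166B and MIR166E.
miR165a-3p: uCGGACCAggcuucauccccc
miR166a-3p, miR166b-3p and miR166e-3p: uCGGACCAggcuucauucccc
The seeds are identical, and the sequences differ in a single base near the 3′ end. The sites follow as they stand in each mRNA, 5′ to 3′, with capitals at the bases that form no Watson-Crick pair with miR165a-3p, 1 of which in each site is a G:U pair.
REV and ATHB8: CUgggaugaagccugguccgG
PHB and PHV: UUgggaugaagccugguccgG
CNA: CUggAaugaagccugguccgG
Each site is 21 bases long, with 11 bases in one exon and 10 in the next. These are exons 4 and 5 in REV (chr5:24398787-24398898, plus strand, the span including the intron), PHB (chr2:14642530-14642666, minus), PHV (chr1:10799330-10799445, minus) and CNA (chr1:19412976-19413085, minus), and exons 5 and 6 in ATHB8 (chr4:15866872-15866974, minus). REV and ATHB8 had the same 21 bases, as did PHB and PHV. Leaving the G:U pairs aside, the CNA site had 2 unpaired bases against miR166 and 3 against miR165a-3p, where the other 4 sites had 2 against either. Poly(A)-primed libraries do not measure mature microRNAs, and of the 9 loci of this family listed, 4 were in the table. MIR166A, MIR166B, MIR166C and MIR166E were listed at 0 FPKM in 61, 55, 69 and 60 of the 71 libraries, so no level was read from them.

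The genes lie at chr5:24396981-24402195 (REV), chr2:14639323-14644355 (PHB), chr1:10796124-10801093 (PHV), chr1:19409688-19414764 (CNA) and chr4:15863339-15868650 (ATHB8) in TAIR10.1. Their annotated mRNAs were 3079 to 3618 bases long. PHB and PHV were the closest pair, with 84.4% identical coding bases and a longest shared run of 64, so short reads from that stretch could be assigned to either. The other 9 pairs shared 68.2% to 74.3% of their bases, with no shared window of 50 bases. Reads of REV and of the GR-REV transgene cannot be separated in a value per gene.

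Values are FPKM, fragments per length of transcript and library total, a level per length that can be compared between genes. In WT the 5 mRNAs were at similar, low levels over all times. CNA, a gene of vascular and meristem tissue, averaged 3.96 ± 0.990 FPKM (SD, n = 24) and REV 3.63 ± 1.16. PHB averaged 3.17 ± 0.809 FPKM, its close copy PHV 2.77 ± 0.667, and ATHB8, a gene of the procambium, 2.47 ± 0.655. The spread between libraries was larger than most steps of this order. Within single WT libraries, CNA stood above REV in 19 of 24 and REV above PHB in 15 of 24. PHB stood above PHV in 18 of 24, and PHV above ATHB8 in 20 of 24. CNA was the higher of the pair against PHV, and PHB against ATHB8, in all 24.

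The WT libraries did not all carry codes of one series. Replicates 1 to 3 of WT and every GR library belonged to code series Ot79, and WT replicates 4 to 6 to Ot86 or OtA0; what a series stands for is not given in the sources used here. REV differed between the series at 0 min. At 0 min REV stood at 5.75, 5.04 and 5.56 FPKM in the Ot86 libraries of WT, against 3.62, 1.80 and 3.93 in the Ot79 libraries of WT. The Ot86 values were all above the Ot79 values, and the same held for CNA, 2 of 5 genes beside 21.1% of all genes tested. At 60 min these 2 series overlapped for all 5 genes, with REV at 3.85 to 4.83 FPKM in Ot86 and 2.55 to 4.17 in Ot79. At 120 min PHB, PHV and ATHB8 were lower in all 3 OtA0 libraries of WT than in all 3 Ot79 libraries of WT, 3 of 5 genes beside 15.0% of all genes. Within the Ot79 libraries of WT, REV was above PHB in 3 of 12 and above PHV in 6 of 12, so the second place of REV in the WT order did not hold there. The code series was therefore a term in every fit below, and differences from WT are also given without replicates 4 to 6 where a call rests on them.

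**Figure D1:**
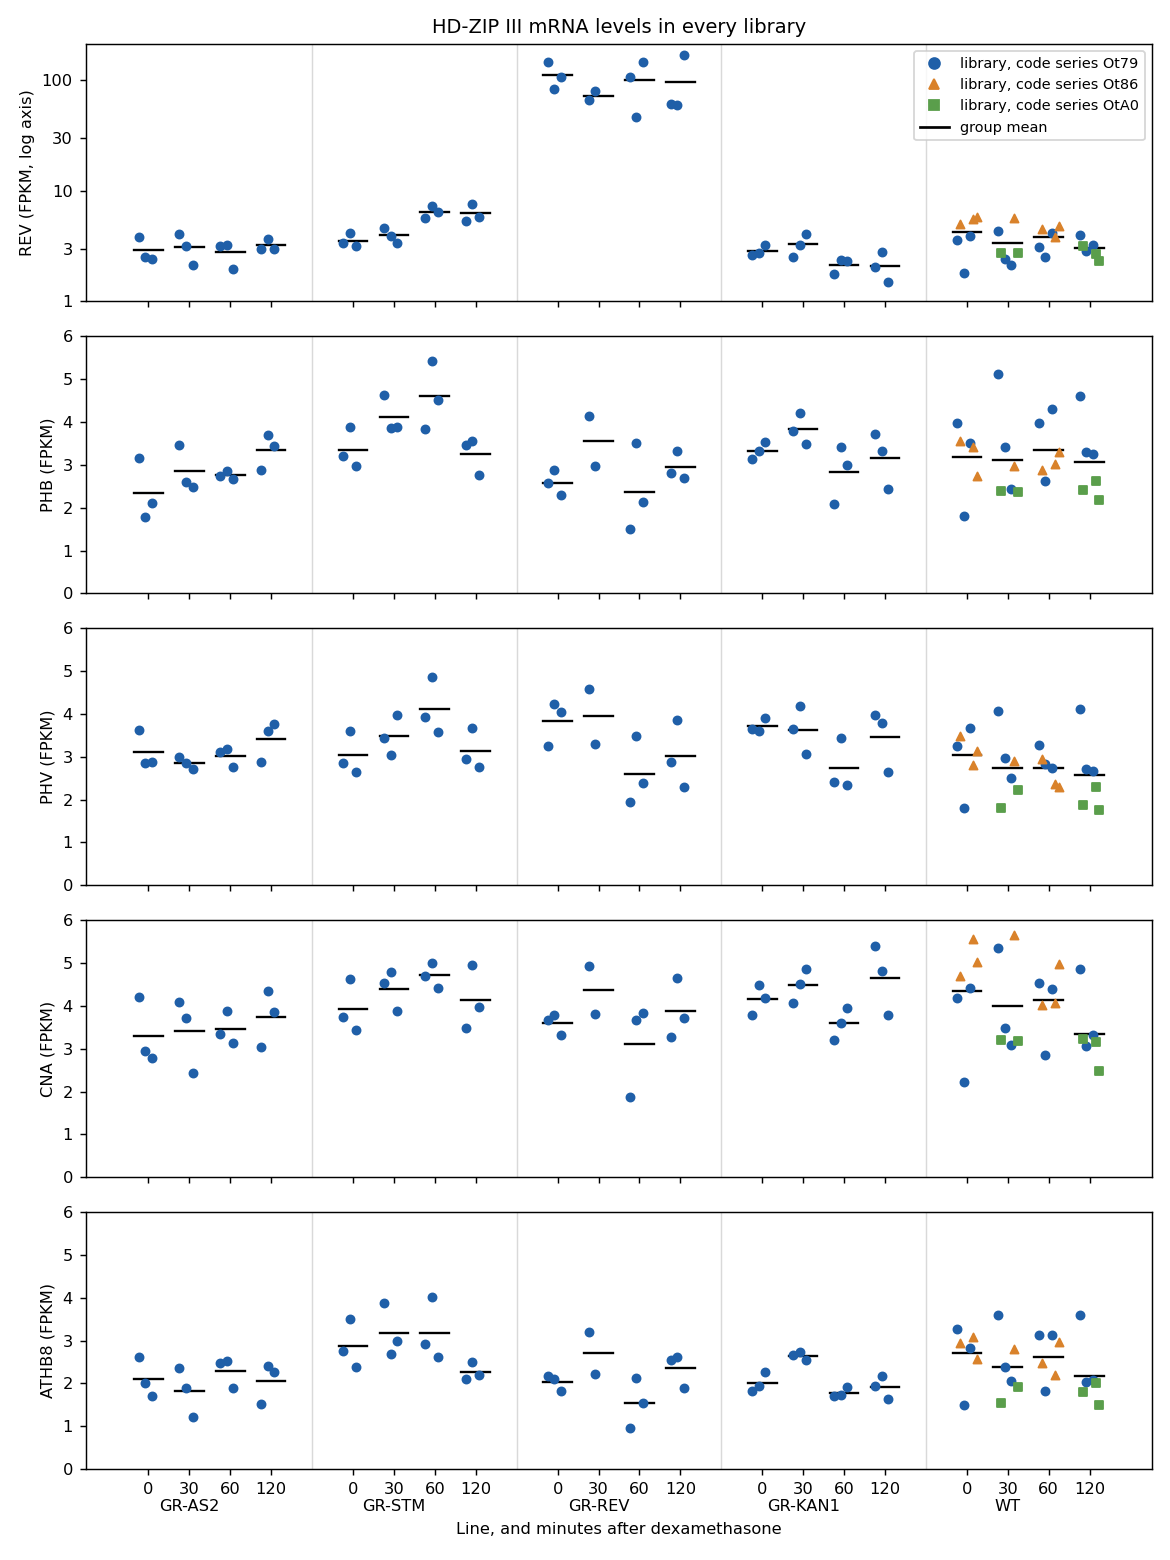
Level of each HD-ZIP III gene in FPKM (REV on a log axis, the others on a linear axis from 0) in all 71 libraries, by line and minutes after dexamethasone, with colour and shape for the library code series and a bar at each group mean. REV stands at 46.1 to 168 FPKM in GR-REV and, in GR-STM at 60 and 120 min, above all WT libraries of the same time; the other 4 genes lie between 0.960 and 5.65 FPKM in every library.

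The WT time course left no call on the family. In WT, 0 of the 5 genes passed the test at 30, 60 or 120 min against 0 min (limma on log2(FPKM + 0.5), Benjamini-Hochberg adjusted p under 0.05 over all genes), and 0 had an unadjusted p under 0.05. Of all genes, 0.0567%, 0.0258% and 0.0670% were called at these times. The largest of the 15 differences in size was 0.16 log2 units, for PHB at 120 min (95% interval -0.19 to 0.51). The widest interval, for REV at 120 min, ran from -0.45 to 0.53, so changes within it were not detectable.

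GR-REV asked what a nuclear REV protein does to its own family. REV itself was the check of the label. It stood at 147, 83.5 and 107 FPKM in GR-REV at 0 min and at 65.8 and 79.8 FPKM at 30 min. At 60 min it stood at 108, 46.1 and 145 FPKM, and at 120 min at 61.4, 59.8 and 168 FPKM. All 11 values were above the highest WT library, at 5.75 FPKM, and already so before the hormone was added. The difference from WT was 4.63 log2 units over the 4 times (SE 0.15, adjusted p = 2.28e-31) and 4.91 at 0 min (SE 0.27, adjusted p = 2.02e-20), transgene and native mRNA together. REV made up 87.4 ± 6.09% of the summed FPKM of the 5 genes in GR-REV (SD, n = 11), against 22.5 ± 3.66% in WT (n = 24).

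The other 4 HD-ZIP III mRNAs stayed close to WT in GR-REV. Summed, they came to 11.9 ± 2.66 FPKM in GR-REV (SD, n = 11) and to 12.4 ± 2.85 FPKM in WT (n = 24), all code series together. In the Ot79 libraries of WT (n = 12), PHB, PHV, CNA and ATHB8 averaged 3.52, 3.05, 3.81 and 2.62 FPKM. In GR-REV, all Ot79, they averaged 2.80, 3.30, 3.68 and 2.11 FPKM. Over the 4 times, 1 of 5 genes was called higher, REV, beside 12.6% of all genes, and 0 of 5 lower beside 10.1% (22.7% in either direction). PHB was -0.25 log2 units from WT (95% interval -0.47 to -0.04, adjusted p = 0.0785) and ATHB8 -0.23 (-0.44 to -0.01, adjusted p = 0.121), and neither passed. PHV was 0.11 from WT (-0.08 to 0.30) and CNA -0.02 (-0.23 to 0.19). Those intervals do not reach a 1.5-fold change in either direction. At 0 min REV alone was called, 1 of 5 beside 4.86% of all genes called higher and 7.81% in either direction. PHB passed in 4 of 35 fits that left out 1 library (replicate 2 of GR-REV at 60 min, replicate 2 of WT at 0 or 60 min, or replicate 3 of WT at 30 min; lowest value -0.33, lowest adjusted p 0.0124), and ATHB8 in 1 of 35 (without WT 0 min replicate 2, adjusted p = 0.0297).

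After dexamethasone, GR-REV's change from 0 min minus the change of WT passed for 0 of 5 HD-ZIP III genes at 30, 60 and 120 min, with 0 unadjusted p under 0.05. Of all genes, 0.0412%, 1.18% and 0.799% were called. REV itself was at -0.56, -0.19 and -0.40 at these times, transgene included. Of the other 4 genes PHV had the lowest values, -0.40 at 60 min (95% interval -0.85 to 0.05) and -0.35 at 120 min (-0.84 to 0.13). PHV stood at 1.94, 3.49 and 2.39 FPKM in GR-REV at 60 min, against a range of 2.302 to 3.27 FPKM in WT, and the groups overlapped. The 30 min values for PHB, CNA and ATHB8 (0.28, 0.14 and 0.31) rest on 2 GR-REV libraries.

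Genes that HD-ZIP III proteins are known to act on, and the genes of their inhibitors, moved in the same libraries. ZPR1, a LITTLE ZIPPER gene, stood at 1740, 819 and 803 FPKM in GR-REV at 60 min and at 59.1, 45.2 and 20.3 FPKM in GR-REV at 0 min, against 7.60 to 21.2 FPKM in WT at 60 min. Its change beyond that of WT was 2.16 log2 units at 30 min (SE 0.37, adjusted p = 0.00199), 4.98 at 60 min (SE 0.34, 4.30e-16) and 5.43 at 120 min (SE 0.36, 1.69e-16). ZPR3 and ZPR4 passed at 60 min (4.24 and 4.08) and 120 min (3.75 and 3.46). ZPR2 did not pass at any of the 3 times and was 1.35 above WT over the 4 times (SE 0.16, adjusted p = 1.66e-09). Together 1, 3 and 3 of the 4 LITTLE ZIPPER genes rose at 30, 60 and 120 min. Of all genes, 0.0412%, 1.18% and 0.799% were called in either direction.

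Of the 5 HD-ZIP II genes, shade-response factors that act with HD-ZIP III proteins in leaf polarity, 2, 4 and 2 rose beyond WT at 30, 60 and 120 min. At these times 0.0412%, 1.18% and 0.799% of all genes were called in either direction. HAT3 changed by 1.72 (SE 0.26, adjusted p = 2.94e-05) and HAT2 by 1.66 (SE 0.23, 3.55e-06) at 60 min, and ATHB2 by 1.67 (SE 0.28, adjusted p = 0.00142) at 30 min. Of 4 other described REV targets, 0, 3 and 1 rose at the 3 times: PYL6, an abscisic acid receptor (1.98), TAA1 (1.48) and YUC5 (1.46), which act in auxin synthesis, passed at 60 min. These targets were described on GR lines of this kind, so their direction is not independent evidence. A gene was tested only where its highest group mean reached 1 FPKM. YUC5 and the HD-ZIP II gene ATHB4 averaged below that level in WT, and of the 5 lines they averaged highest in GR-REV. Their entry into the test may therefore rest on the GR-REV libraries themselves. The median change at 60 min was 4.16 over the 4 LITTLE ZIPPER genes, 1.37 over the 5 HD-ZIP II genes and -0.24 over the 5 HD-ZIP III genes.

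**Figure D2:**
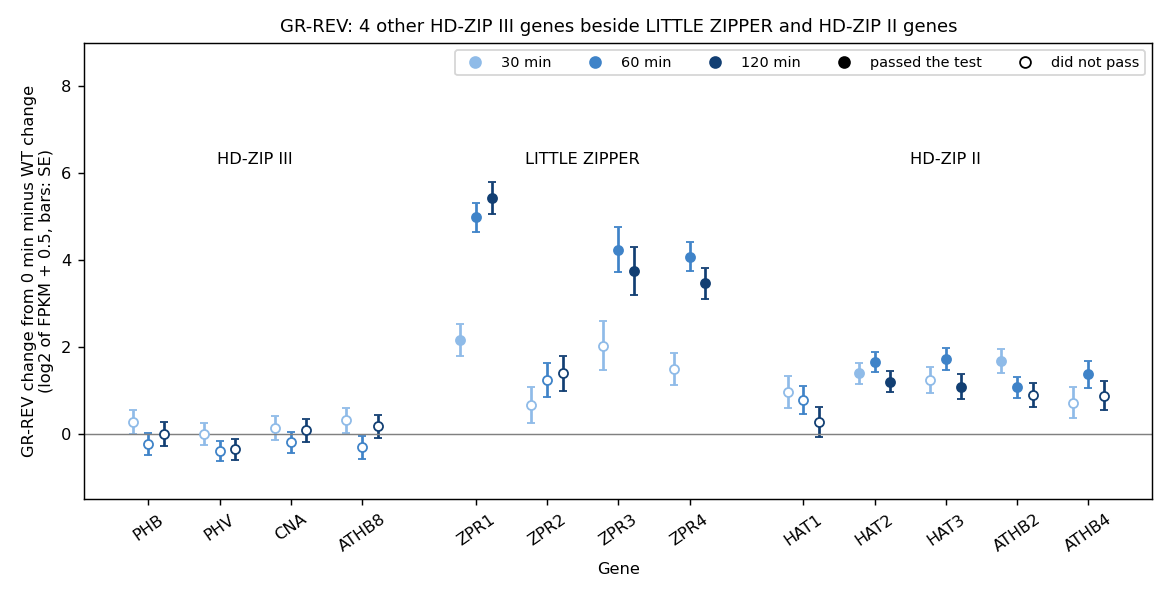
Change of GR-REV from 0 min minus the change of WT, in log2 units with standard errors, at 30, 60 and 120 min for the 4 HD-ZIP III genes other than REV, the 4 LITTLE ZIPPER genes and the 5 HD-ZIP II genes; filled points passed the test. The HD-ZIP III points lie between -0.40 and 0.31, while ZPR1, ZPR3 and ZPR4 lie between 3.46 and 5.43 at 60 and 120 min.

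Over the 4 times, 6 of 12 adaxial and abaxial factors were lower in GR-REV than in WT, beside 10.1% of all genes called lower. Apart from AS1 and AS2 the list holds genes of the KANADI, YABBY and ARF families, which act on the lower leaf side, and the 6 are among these. Those with the lowest adjusted p were KAN2 (-0.51, SE 0.08, adjusted p = 4.84e-06), YAB3 (-0.55, SE 0.10, 1.49e-05), KAN3 (-0.55, SE 0.11, 1.06e-04) and YAB1 (-0.28, SE 0.10, 0.0262). Of 8 vascular factors, PXY and WOX4, which act in the cambium, were higher (0.49 and 0.42), beside 12.6% of all genes called higher. APL, a phloem regulator, was lower (-0.64). Of 7 genes of microRNA processing and action, AGO10 was higher (0.32, SE 0.11, adjusted p = 0.0298), beside the same 12.6% of all genes. AGO10 is known to bind miR165 and miR166 and shield HD-ZIP III mRNAs. It stood at 4.08 ± 0.985 FPKM in GR-REV (SD, n = 11) and 3.53 ± 0.907 FPKM in WT (n = 24). Both phloem markers, APL and SUC2, were lower, with a summed level of 24.5 to 43.2 FPKM in GR-REV and 36.6 to 83.7 FPKM in WT. Of 4 xylem markers tested, 0 passed and 2 had an unadjusted p under 0.05, with a summed level of 30.6 to 60.6 FPKM in GR-REV and 35.6 to 65.9 in WT. The part of tissue composition in these values was not tested.

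GR-STM was the line in which REV differed from WT without a REV transgene. REV averaged 5.05 ± 1.53 FPKM in GR-STM (SD, n = 12) and 3.63 ± 1.16 FPKM in WT (n = 24). In the Ot79 libraries of WT it averaged 3.18 ± 0.834 FPKM (n = 12). The values in GR-STM were 3.34, 4.13 and 3.19 FPKM at 0 min, 4.57, 3.93 and 3.36 at 30 min, 5.66, 7.29 and 6.41 at 60 min, and 5.35, 7.55 and 5.85 at 120 min. In WT, REV ranged over 1.80 to 5.75 FPKM at 0 min, 2.14 to 5.66 at 30 min, 2.55 to 4.83 at 60 min and 2.33 to 3.96 at 120 min. The GR-STM libraries overlapped WT at 0 and 30 min, and at 60 and 120 min all 3 stood above all 6 WT libraries. They also stood above all 3 GR-STM libraries at 0 min at both times, REV alone of the 5 genes, beside 12.6% of all genes at 60 min and 10.9% at 120 min.

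Over the 4 times REV was 0.58 log2 units higher in GR-STM than in WT (SE 0.14, 95% interval 0.29 to 0.87, adjusted p = 0.00842), 1 of 5 genes beside 2.41% of all genes called higher. The call held in all 11 alternative fits (0.43 to 0.64, adjusted p 4.82e-04 to 0.0232) and in all 36 fits that left out 1 library (highest adjusted p 0.0273). The fit on genes with a mean of at least 5 FPKM is among the alternatives, and REV reached that mean only through the GR-REV libraries. Without WT replicates 4 to 6, so within code series Ot79, the difference was 0.58 (adjusted p = 0.0232). At 0 min it was 0.15 (95% interval -0.39 to 0.68, adjusted p = 0.995), with 0 of 5 genes called, 0 at an unadjusted p under 0.05 and 0.330% of all genes called. The change beyond that of WT was 0.17 at 30 min, 0.87 at 60 min (SE 0.35, 95% interval 0.16 to 1.58, adjusted p = 0.327) and 0.69 at 120 min (SE 0.38, -0.07 to 1.45, adjusted p = 0.991). None of these passed, so the fit shows a difference between the lines and does not date it to the hormone.

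The other members in GR-STM were 0.13 to 0.18 log2 units above WT over the 4 times, and 0 of these 4 passed. Their adjusted p ran from 0.474 for CNA to 0.691 for PHB. PHV stood at 3.91, 4.85 and 3.58 FPKM in GR-STM at 60 min, above all 6 WT libraries (2.302 to 3.27), and its change beyond WT there was 0.49 (SE 0.23, 95% interval 0.04 to 0.95, adjusted p = 0.423). Thus 2 of 5 genes had all GR-STM libraries above WT at 60 min and 1 of 5 at 120 min, beside 4.00% and 6.22% of all genes. Beyond WT at 30, 60 and 120 min 0 of 5 genes passed, of which 0, 2 and 0 had an unadjusted p under 0.05, and 0.144%, 0.876% and 0.819% of all genes were called. Whether REV and the other 4 genes differ in their response was not tested.

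The same lists were read in GR-STM. Of the LITTLE ZIPPER genes 0 of 4 passed over the 4 times, with 1 unadjusted p under 0.05 and a median of -0.17. ATHB2 was higher (1.25, SE 0.10, adjusted p = 1.64e-13) and HAT3 lower (-0.41, SE 0.11, 0.0140), and TAA1 was lower (-0.57, SE 0.08, 6.97e-07). Of the 12 adaxial and abaxial factors 3 were higher, beside 2.41% of all genes: AS1, the partner of AS2 (0.72, adjusted p = 9.46e-07), KAN1 (0.71, 0.00164) and ARF4 (0.40, 3.48e-04). The cambium factor WOX4 was also higher (0.50, SE 0.13, adjusted p = 0.0102). Beside the REV result, 0 of 5 green shoot, 0 of 5 root, 0 of 4 xylem and 0 of 2 phloem markers passed in GR-STM, with 1 unadjusted p under 0.05, for phloem. Of all genes, 4.08% were called in either direction. The green shoot marker RBCS1A was listed at 0 in every GR-STM library and reached 74400 FPKM in WT. CAB1, another, was at 0 in 8 of the 71 libraries, so the green shoot count says little. The part of tissue composition in the REV result was not tested. The summed level of the 5 xylem markers in the table, all above 0 in every library, was 36.4 to 66.6 FPKM in GR-STM and 35.6 to 65.9 FPKM in WT, and the summed root level 47.9 to 136 FPKM in GR-STM and 39.4 to 136 FPKM in WT. STM was the only shoot meristem marker in the table and is the transgene of this line, so no count of meristem cells could be read from it.

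**Figure D3:**
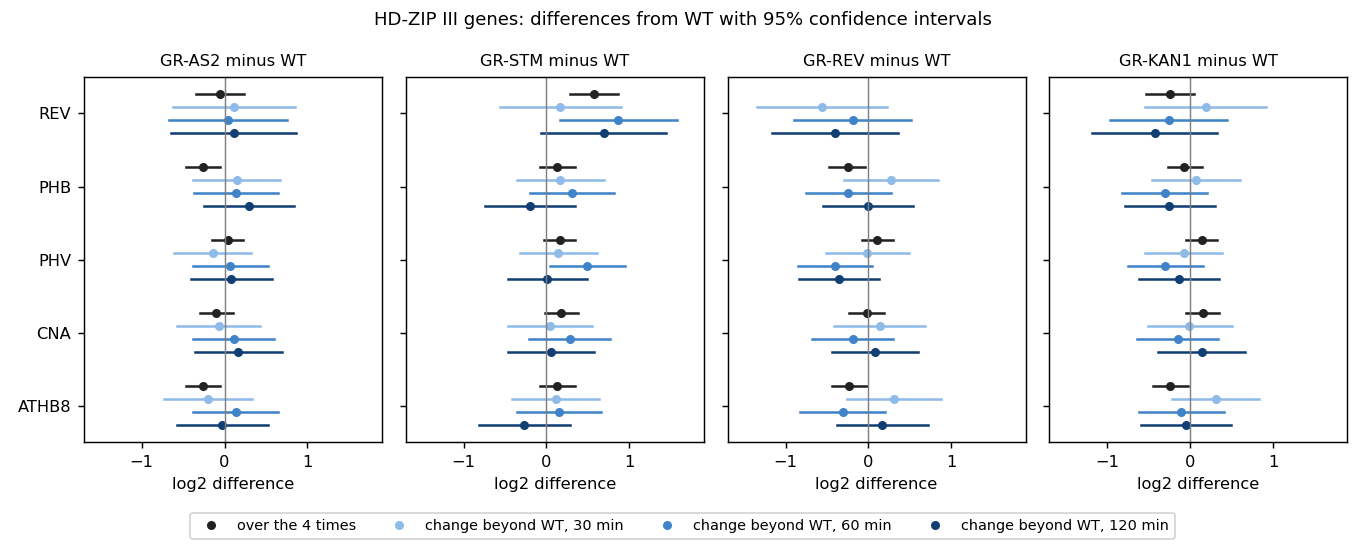
Differences of each GR line from WT in log2 units with 95% confidence intervals for the 5 HD-ZIP III genes: over the 4 times (black) and as change from 0 min beyond that of WT at 30, 60 and 120 min (light to dark blue); REV in GR-REV over the 4 times (4.63) lies outside the plot and is left out. The interval of REV in GR-STM over the 4 times, 0.29 to 0.87, lies above 0 and passed the test; of the others that exclude 0, none passed after adjustment.

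In GR-KAN1, REV had the lowest mean of the 5 lines. KAN1 is a repressor of the lower leaf side and a known antagonist of HD-ZIP III activity. REV averaged 2.61 ± 0.709 FPKM in GR-KAN1 (SD, n = 12) and 3.63 ± 1.16 FPKM in WT (n = 24). In the Ot79 libraries of WT it averaged 3.18 ± 0.834 FPKM (n = 12). It stood at 2.65, 2.74 and 3.21 FPKM in GR-KAN1 at 0 min and at 2.53, 3.24 and 4.11 at 30 min. At 60 min it stood at 1.75, 2.38 and 2.31 FPKM, below all 6 WT libraries (2.55 to 4.83), 1 of 5 genes beside 5.22% of all genes. At 120 min the values were 2.05, 2.81 and 1.48 FPKM, below the 3 Ot79 libraries of WT (2.89 to 3.96), 1 of 5 genes beside 13.6% of all genes, but not below all OtA0 libraries.

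No HD-ZIP III gene was called in GR-KAN1. Over the 4 times REV was -0.24 log2 units from WT (95% interval -0.53 to 0.05, adjusted p = 0.290) and ATHB8 -0.24 (-0.45 to -0.03, adjusted p = 0.122), and PHB, PHV and CNA lay between -0.07 and 0.15. That is 0 of 5 with 1 unadjusted p under 0.05, beside 11.6% of all genes called. Without the code series term REV (-0.39, adjusted p = 0.0237) and PHV (0.26, adjusted p = 0.0214) passed, in opposite directions. ATHB8 passed with quantile normalization (adjusted p = 0.0477) and without WT 0 min replicate 2 (adjusted p = 0.0298). The change beyond WT at 30, 60 and 120 min was 0.19, -0.26 and -0.43 for REV, and 0 of 5 genes passed at any of these times, with 0 unadjusted p under 0.05, beside 0.0670%, 1.05% and 0.830% of all genes. At 0 min 0 of 5 passed, with 0 unadjusted p under 0.05, beside 0.742% of all genes.

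In GR-AS2, PHB and ATHB8 had the lowest differences. AS2 works with the MYB factor AS1 to keep lower-side genes off in young leaves. PHB averaged 2.82 ± 0.560 FPKM in GR-AS2 (SD, n = 12) and 3.17 ± 0.809 FPKM in WT (n = 24). ATHB8 averaged 2.08 ± 0.438 FPKM in GR-AS2 and 2.47 ± 0.655 FPKM in WT. In the Ot79 libraries of WT, PHB and ATHB8 averaged 3.52 ± 0.946 and 2.62 ± 0.725 FPKM (n = 12). Both were -0.26 log2 units from WT over the 4 times (95% intervals -0.47 to -0.05, adjusted p = 0.0749 and 0.0747). The count was 0 of 5 with 2 unadjusted p under 0.05, beside 17.6% of all genes called. REV was -0.05, PHV 0.04 and CNA -0.10 from WT. PHB and ATHB8 both passed with quantile normalization, and each passed in 5 of 36 fits that left out 1 library (lowest adjusted p 0.0131 for PHB and 0.0177 for ATHB8; replicate 1 of GR-AS2 at 0 or 30 min, replicate 2 of WT at 0 or 60 min, or replicate 3 of WT at 30 min). Both also passed with each library's trend with mRNA length taken out (-0.27 each, adjusted p = 0.0270 and 0.0280). At 0 min PHB stood at 3.14, 1.78 and 2.117 FPKM in GR-AS2, against 1.79 to 3.98 FPKM in WT, a difference of -0.40 (adjusted p = 0.164), and 0 of 5 genes passed, with 1 unadjusted p under 0.05, beside 10.3% of all genes. Beyond WT at 30, 60 and 120 min, 0 of 5 genes passed and 0 had an unadjusted p under 0.05; of all genes 0, 2 (0.0103%) and 0 were called, where 2049, 1713 and 1308 had an unadjusted p under 0.05.

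Library by library, the family moved together. Deviations of each library from its group and code series means were taken on the log2 scale. PHB, PHV, CNA and ATHB8 deviated alike, with Pearson's r of 0.66 (PHV and CNA) to 0.85 (PHB and ATHB8, and CNA and ATHB8) over 71 libraries and Spearman's rho of 0.59 to 0.84. Each had a permutation p of 1e-05 (2e-05 adjusted over the 17 relations computed), the smallest that the 100000 permutations can give. Within the 59 Ot79 libraries these r were 0.71 to 0.86, and without the 2 farthest libraries 0.60 to 0.82. In WT at 0 min, replicate 2 was lowest for all 5 genes, between -0.68 and -0.60 from its group, and in WT at 30 min replicate 1 was highest, between 0.34 and 0.50.

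REV joined this movement where it was not a transgene. Over the 60 libraries outside GR-REV, the deviation of REV had r = 0.83 and rho = 0.80 with the mean of the other 4 (permutation p = 1e-05, adjusted 2e-05; 0.84 within the 48 Ot79 libraries, 0.79 without the 2 farthest). In the 11 GR-REV libraries the relation had the opposite sign, r = -0.62 (permutation p = 0.0409, adjusted 0.0434) and rho = -0.64 (0.0396, adjusted 0.0421), and r = -0.39 without the 2 farthest libraries, so it rests on them. Free permutation takes no account of the group means removed, which tie the deviations within a group (REV -0.14 and 0.14 in GR-REV at 30 min). These p are therefore too small, and no call was drawn from them. Over all 71 libraries, GR-REV included, the r of REV with single members was 0.08 (PHV) to 0.47 (CNA), and the split into these 2 sets was made after those values were seen. At 60 min, GR-REV replicate 2 had the lowest REV, 46.1 FPKM, with PHB at 3.50 and ATHB8 at 2.13. Replicates 1 and 3, with REV at 108 and 145, had PHB at 1.49 and 2.13 and ATHB8 at 0.960 and 1.55. PHV stood at 3.49 in replicate 2 and at 1.94 and 2.39 in replicates 1 and 3. CNA differed, with deviations of -0.56, 0.25 and 0.31 in replicates 1 to 3, highest where REV was highest. Replicate 2, with REV at -0.95 from its group, is also 1 of the 2 farthest libraries.

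The shared movement was not particular to the family. The mean deviation of PHB, PHV, CNA and ATHB8 followed the median deviation of the 1828 other genes with mRNAs of 3000 bases or more (r = 0.82, rho = 0.78, permutation p = 1e-05 each, adjusted 2e-05; 0.84 within Ot79, 0.78 without the 2 farthest). It ran against that of the 7623 genes with mRNAs below 1500 bases (r = -0.64, rho = -0.60, same p; -0.65 within Ot79, -0.62 without the 2 farthest). REV outside GR-REV also followed the long mRNAs (r = 0.76, rho = 0.71, same p; 0.77 within Ot79, 0.73 without the 2 farthest). Across genes, which are not independent, the median r with the family mean was -0.17 for mRNAs below 1000 bases and 0.61 for those of 4000 bases or more. With the length trend of each library taken out, REV in GR-STM was 0.59 above WT over the 4 times (adjusted p = 0.00149). In GR-AS2, PHB and ATHB8 then passed over the 4 times (-0.27 each, adjusted p = 0.0270 and 0.0280). PHB also passed at 0 min (-0.49, adjusted p = 0.0455), and none of these had passed in the main fit. The part of RNA quality or of cDNA priming from the poly(A) end in this movement was not tested.

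**Figure D4:**
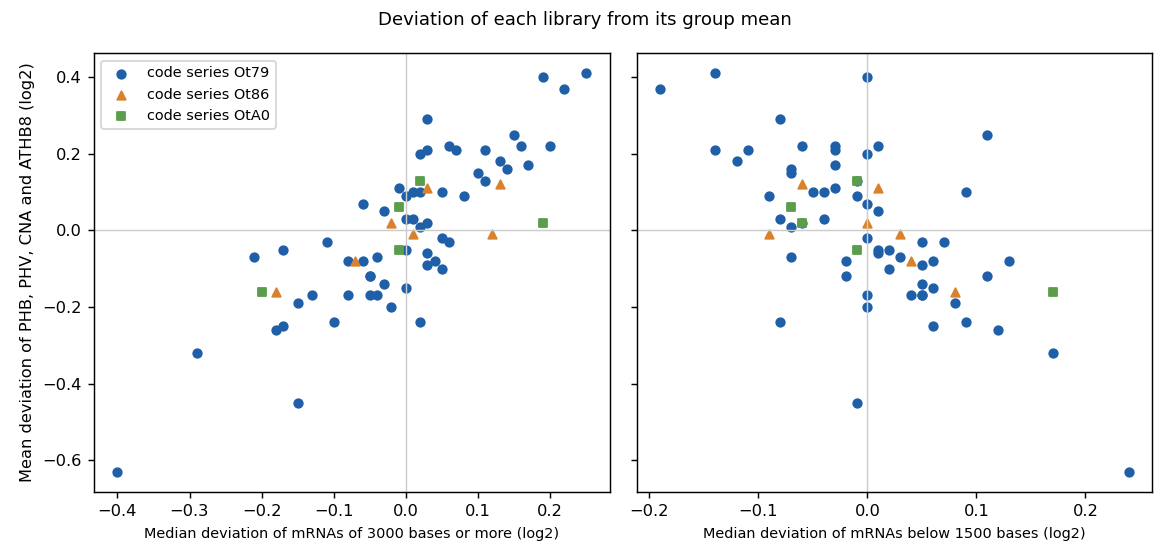
Mean deviation of PHB, PHV, CNA and ATHB8 from the group mean (log2 units, vertical axis) against the median deviation of long mRNAs, 3000 bases or more (left), and of short mRNAs, below 1500 bases (right), 1 point a library (71), coloured by code series. The points rise with the long mRNAs (r = 0.82) and fall with the short ones (r = -0.64), and WT 0 min replicate 2 lies at the lower end at -0.63.

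The genes most like each member over the group means of the Ot79 libraries are given as a description; groups share lines and times, and long mRNAs share the movement above. For REV, over 16 groups without GR-REV, these were AGO7 (r = 0.98), DIM1B (0.97) and PAO5 (0.95). AGO7 is an Argonaute of the trans-acting siRNA pathway that limits ARF3 and ARF4. It stood at 2.38 ± 0.285 FPKM in GR-STM at 60 min and 0.455 ± 0.184 FPKM in GR-KAN1 at 60 min (SD, n = 3 each), against 1.15 ± 0.0668 FPKM in WT (n = 6). Without GR-STM at 60 and 120 min its r with REV was 0.93 over 14 groups. For CNA the closest were ARF8 (0.91), PHYB (0.87) and AT1G80020 (0.86), over 20 groups. DOT2 (0.88) led for PHB, AT2G25760 (0.85) for PHV and AT2G30820 (0.84) for ATHB8.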

How the data were processed

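FPKM values, geometrically normalized between libraries, were deposited by the authors as 1 table, per the labels; the submitters' processing notes name TopHat2 2.0.10, Cufflinks (version not given in the sources used here) and TAIR10. Strand use is not given either. Depth is unknown, because low FPKM values were not whole multiples of 1 read; precision is that of the replicates, which the design text calls biological. Of 22346 entries, 14 placeholders were left out, and the table held 0 columns of other samples. Median FPKM per library was 4.25 to 4.92, and 332 to 1136 genes were listed at 0. Groups came from the labels. Symbols and positions came from RefSeq's TAIR10.1 annotation, which matched 22041 genes.

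One limma 3.58.1 model (R 4.3.3) held all 71 libraries on log2(FPKM + 0.5), with a mean for each of 20 groups and the code series as covariate (49 residual degrees of freedom, trend on mean level, two-sided), over genes with a highest group mean of at least 1 FPKM. Fold changes are on this scale, which understates those of low genes. Benjamini-Hochberg adjusted p under 0.05 within each of 23 comparisons made a call, printed with SE. The fit was tested on simulated data. Correlations used permutations in Python 3.11.15, made freely over libraries, so their p take no account of the group means removed. The labels write the KAN1 fusion in both orders. The members and the gene lists were chosen with earlier results of these data known. Named beside the 5 members are list genes that passed (at most 4 a list and comparison, by lowest adjusted p), the LITTLE ZIPPER genes and the 3 genes most like each member.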

Additional observations from a re-analysis of the deposited data

Results flagged for a closer look

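Among the 20 sets of 6 WT libraries examined (5 genes at 4 times), 2 held a library far from the other 5, and chance alone gives about 1 in 20. Both were in WT at 120 min and both came from replicate 1. CNA stood at 4.85 FPKM in that library, against 2.47 to 3.32 FPKM in the other 5. ATHB8 stood at 3.60 FPKM in it, against 1.502 to 2.08 FPKM in the other 5. In the same library PHB and PHV deviated from the group by 0.31 and 0.36 log2 units, and the median of long mRNAs by 0.22.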

How the results depend on the processing

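The 2 calls on REV over the 4 times, in GR-REV (4.44 to 4.80) and in GR-STM (0.43 to 0.64), and that in GR-REV at 0 min kept their direction and their side of the threshold in all 11 alternatives. Of 253 counts of called HD-ZIP III genes under alternative settings, 244 stayed within 1.5 times the count reported. The 9 others were these: for GR-AS2 at 0 min, 1 without 5 libraries that stand apart and 1 with the length trend taken out (an alternative added after seeing the data), in place of 0; for GR-AS2 over the 4 times, 2 with quantile normalization, 1 without those 5 libraries and 2 with the length trend taken out, in place of 0; for GR-STM, GR-REV and GR-KAN1 over the 4 times, 3, 2 and 2 without the code series covariate, in place of 1, 1 and 0; and for GR-KAN1 over the 4 times, 1 with quantile normalization. The cause was not tested. Leaving out 1 library changed 12 of 430 counts: 0 to 1 for GR-AS2 at 0 min (WT 0 min replicate 2 or GR-AS2 0 min replicate 1), 0 to 2 for GR-AS2 over the 4 times (replicate 1 of GR-AS2 at 0 or 30 min, replicate 2 of WT at 0 or 60 min, or replicate 3 of WT at 30 min), 1 to 3 for GR-REV over the 4 times (3 without WT 0 min replicate 2; 2 without replicate 2 of GR-REV at 60 min or of WT at 60 min, or replicate 3 of WT at 30 min), and 0 to 1 for GR-KAN1 over the 4 times (WT 0 min replicate 2). Replicate numbers did not pair the libraries (median r of deviations 0.00 over 569 same-numbered pairs), and the replicate block changed no call on the 5 genes; REV in GR-STM was 0.58 with it (adjusted p = 0.0115). With a mean of at least 5 FPKM over all libraries, REV was the only member tested, and it reached that mean only through GR-REV (97.3 FPKM there). The other 4 members could not be called in that setting, so its counts could hardly move. The counts of all genes called varied more. Over the 4 times they were 2303 to 8021 in GR-AS2 (3418 as reported), 411 to 5326 in GR-STM (791), 2762 to 8483 in GR-REV (4400) and 1540 to 6725 in GR-KAN1 (2254), highest without the code series covariate. At 0 min they were 193 to 3465 in GR-AS2 (2000), 5 to 137 in GR-STM (64), 737 to 2410 in GR-REV (1515) and 44 to 308 in GR-KAN1 (144). Beyond WT at 30, 60 and 120 min they were 0 to 149, 0 to 31 and 0 to 3 in GR-AS2 (0, 2 and 0), 0 to 31, 42 to 251 and 71 to 185 in GR-STM (28, 170 and 159), 1 to 12, 76 to 236 and 68 to 174 in GR-REV (8, 229 and 155), and 2 to 34, 106 to 252 and at most 367 in GR-KAN1 (13, 204 and 161). In WT they were 0 to 15, 2 to 17 and 7 to 273 (11, 5 and 13). Depth is unknown, so no counting limit can be given for these low mRNAs.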

Other observations

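The genes around the family were also read in the lines where no HD-ZIP III gene was called. In GR-KAN1 over the 4 times, where 11.6% of all genes were called, the LITTLE ZIPPER gene ZPR1 was higher than in WT (0.56, SE 0.14, adjusted p = 0.00368), 1 of 4. Of the 5 HD-ZIP II genes 2 were higher and 2 lower: ATHB2 (0.56, adjusted p = 7.91e-05) and HAT3 (0.38, 0.0146) against HAT2 (-0.55, 1.84e-05) and HAT1 (-0.39, 0.0498). AS2 was lower (-0.83, SE 0.10, adjusted p = 7.34e-09), at 1.48 ± 0.583 FPKM in GR-KAN1 (SD, n = 12) and 3.99 ± 1.31 FPKM in WT (n = 24). AGO1, the main microRNA effector, was higher (0.27, SE 0.08, adjusted p = 0.0250). In GR-AS2 over the 4 times, where 17.6% of all genes were called, 3 of 5 HD-ZIP II genes were lower, HAT3 (-0.47), ATHB2 (-0.42) and HAT1 (-0.49), as were 6 of 12 adaxial and abaxial factors, led by YAB3 (-0.55, SE 0.09, adjusted p = 7.51e-05). Of 5 green shoot markers LHCB2.1 (-1.10) and GUN4 (-0.89) were lower in GR-AS2, while PSAD-1 (-0.51, adjusted p = 0.237) and CAB1 (2.46, SE 1.86, adjusted p = 0.372) did not pass. The fifth, RBCS1A, did not pass either. It was listed at 0 in 58 of the 71 libraries, among them all of GR-AS2, GR-STM and GR-KAN1, and reached 74400 FPKM in WT. The part of green tissue in these values was not tested.

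MIR166C was listed above 0 in 2 of the 71 libraries, at 1080 FPKM in a GR-AS2 library and at 45.2 FPKM in a GR-KAN1 library. These are single listed values, and no level of the locus was read from them.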
